A study of Mus musculus with 8 samples.

Results

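The RNA levels of 10 genes of the NF-κB system, which encode its 5 subunits (Nfkb1, Nfkb2, Rel, Rela and Relb) and 5 of its inhibitors and feedback regulators (Nfkbia, Nfkbie, Nfkbiz, Bcl3 and Tnfaip3), were followed in cultured mouse keratinocytes (KCs), the epithelial cells of the epidermis. The genes were chosen by name, with earlier results of these data known. Each of the 10 was found among the 41457 genes listed for every sample. The KCs came from the tails of adult C57BL/6 mice of wild-type genotype (C57BL/6J in the study's text). They were left untreated and grown in serum-free SFM KC medium with 0.06 mM Ca++, with splitting at 90% confluence. Poly(A) RNA was sequenced from 4 samples kept in culture for 1 week and from 4 samples kept for 3 weeks. The study's text describes the same batches of cells at both times. The numbers in the file names, read below as preparation numbers, match only in part. The design text calls the samples independent experiments, but it does not say whether a preparation came from 1 mouse or from pooled tails.

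NF-κB factors are dimers of 5 related proteins that share a DNA-binding Rel homology domain. RelA, RelB and c-Rel can activate transcription themselves, whereas p50 and p52, which are cut from the longer products of Nfkb1 and Nfkb2, lack a transactivation domain. IκB proteins hold the dimers in the cytoplasm until a kinase complex marks them for degradation, and several of the genes that NF-κB switches on encode its own inhibitors. In epidermis, NF-κB signalling is known for its part in inflammation and in the balance between growth and survival of KCs.

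A κB consensus motif, the DNA element that NF-κB dimers bind, was searched on both strands in the RefSeq promoter sequences of build GRCm38.p6, which span 250 bases before and 50 bases after each start site. Of the 10 genes, 7 had an entry, and 6 of these 7 held at least 1 match. Of all 32851 promoter windows of the same length, 4.51% held a match, which is 5.14% of the 27025 genes. Rela was the gene with an entry and no match, and Nfkb1, Relb and Nfkbiz had no entry. Such a match is a description of the letters and not evidence of binding in KCs. The stretches below are shown because they lie at the start sites of genes whose RNA levels are described here. They are written 5′ to 3′ on the strand of the gene, with the κB matches in capitals. The runs of 11 capitals, at Nfkb2 and Rel, are matches that overlap each other.
Tnfaip3 (chr10:19015411-19015547, minus strand): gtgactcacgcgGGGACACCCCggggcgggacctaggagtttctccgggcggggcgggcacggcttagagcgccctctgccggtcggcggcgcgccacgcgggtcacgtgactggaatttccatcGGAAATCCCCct
Nfkbia (chr12:55492648-55492897, minus strand): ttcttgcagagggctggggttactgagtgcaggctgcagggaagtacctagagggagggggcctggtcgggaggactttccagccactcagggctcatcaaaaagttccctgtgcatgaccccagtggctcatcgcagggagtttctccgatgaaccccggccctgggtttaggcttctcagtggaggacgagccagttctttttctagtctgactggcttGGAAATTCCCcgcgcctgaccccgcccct
Nfkbie (chr17:45555574-45555623, plus strand): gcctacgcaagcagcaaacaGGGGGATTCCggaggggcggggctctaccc
Rel (chr11:23771031-23771081, minus strand): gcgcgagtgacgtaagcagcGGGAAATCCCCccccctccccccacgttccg
Nfkb2, first match (chr19:46304690-46304716, plus strand): atcgtcacGGGAATTCCCCccctcggg
Nfkb2, second match (chr19:46304718-46304743, plus strand): ggccgaaaGGGGCTTTCCcggctgga
Bcl3 (chr7:19822736-19822761, minus strand): ggcggcagGGGAAGTCCCgctgcccg
The matches began 125 and 12 bases before the start site of Tnfaip3, 29 bases before that of Nfkbia, 106 bases before that of Nfkbie, 92 bases before that of Rel, and 39 and 11 bases before that of Nfkb2. The Bcl3 match began at base 3 after the RefSeq start site and lies in the annotated 5′ untranslated region. The Nfkb2 matches lie upstream of the RefSeq start site but within the untranslated first exon of a longer annotated transcript. The Tnfaip3 matches also lie within the annotated span of their gene, which reaches base 19015657, upstream of the RefSeq start site. They are outside its annotated untranslated regions.

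The samples held between 13896807 and 20026084 reads on exons, of which 81.6% to 84.7% mapped to a single place. Changes are log2 ratios of 3 weeks over 1 week, estimated by edgeR on these reads. Its quasi-likelihood test was run on 12590 genes, and p-values were adjusted over all of them (Benjamini-Hochberg, threshold 0.05). RPKM values (exon reads corrected for gene length and sequencing depth) are given as deposited, and they alone are used to compare levels between genes. Over all genes tested, the median log2 change was 0.03 in edgeR and -0.16 with log2(RPKM + 0.1), so falls read from RPKM are slightly larger. The libraries of 3 weeks replicates 3 and 4 stood apart. Each sample was set against the mean of the other samples of its group. The median absolute deviation of genes was 0.43 on the log2 scale in 3 weeks replicate 4 and 0.40 in 3 weeks replicate 3, against 0.15 to 0.22 in the other 6 samples. In 3 weeks replicate 4, 4.56% of the tested genes lay far above the other samples of the group by Dixon's test, against at most 0.953% in any other sample. The results are therefore also given without replicate 4, and the counts without replicate 3. KC markers were abundant in all samples, with a summed level of 13521 to 15950 RPKM for 10 markers at 1 week and 8373 to 9900 RPKM at 3 weeks. Krt5 and Krt14 held most of this sum. Krt5, Trp63 and Itga6 were lower at 3 weeks without overlap, and the other KC markers, Krt14 among them, overlapped between the times. Of the 10 KC markers, 2 passed the threshold in edgeR. Melanocyte markers (6 genes) summed to 3.54 to 21.4 RPKM at 1 week and 1.64 to 5.94 RPKM at 3 weeks. Their part in the results was not tested. The 11 leukocyte markers summed to 1.45 to 4.44 RPKM and 1.78 to 4.22 RPKM, with reads of Lyz2, Cd74 and Csf1r in every sample. The leukocyte markers Cd207 and Trdc were at 0 reads in all 8 samples, and Ptprc did not exceed 0.032 RPKM.

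All 10 genes passed the filter on low counts. After 3 weeks, 1 of them was called higher (Tnfaip3) and 0 were called lower in edgeR, while 15.7% of all tested genes were called higher and 17.0% lower (32.8% in all). At an unadjusted p under 0.05 the counts were 1 higher and 1 lower, the latter being Nfkbiz, against 21.7% and 22.0% of all genes, and DESeq2 called 1 higher and 1 lower, again Tnfaip3 and Nfkbiz. Of all genes, 1981 were called higher and 2146 lower in edgeR, against 1292 and 3025 with limma on log2(RPKM + 0.1). In DESeq2, 19.3% of all genes were called higher and 19.5% lower (38.8% in all). The median log2 fold change of the 10 genes was -0.34, with 3 positive and 7 negative values. For none of the 10 were the RPKM values of the groups separated, whereas 26.2% of the tested genes were lower without overlap and 10.8% higher without overlap. Without 3 weeks replicate 4, 0 genes were called higher and 3 lower (Nfkb1, Nfkbiz and Bcl3), against 17.8% and 18.7% of all genes in that fit (36.5% in all). Without 3 weeks replicate 3, 1 was called higher (Tnfaip3) and 0 lower, against 17.1% and 20.8% of all genes. The calls therefore differ between the fits, and the value in each sample is given for every gene.

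**Figure D1:**
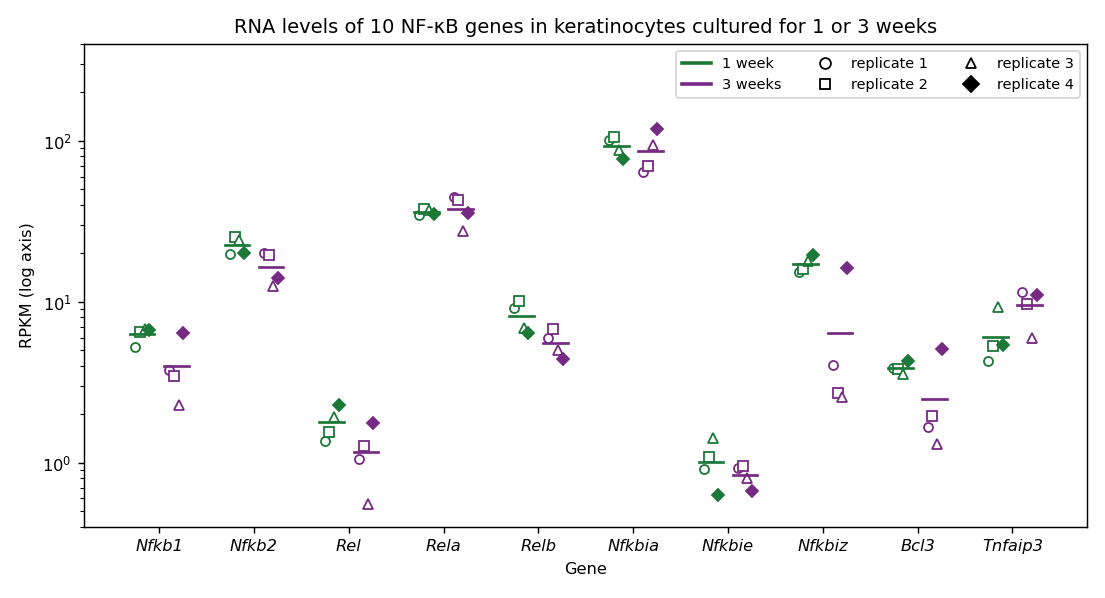
RPKM (log axis) of the 10 genes in each of the 8 samples, with 1 week in green and 3 weeks in purple, a symbol for each replicate number (filled diamonds for replicate 4) and a bar at each group mean. In 3 weeks replicate 4, Nfkbiz stood at 16.1 RPKM and Bcl3 at 5.06 RPKM, near or above the 1-week samples, while the other 3-week samples were at 4.06 RPKM or less for Nfkbiz and 1.94 RPKM or less for Bcl3.

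Rela (ENSMUSG00000024927, chromosome 19, 5637483 to 5648130, GRCm38), which encodes the transactivating subunit RelA, was the most abundant of the 5 subunit transcripts at both times. Its level was 34.7, 37.8, 37.4 and 35.1 RPKM in replicates 1 to 4 at 1 week and 44.6, 43.2, 27.5 and 35.5 RPKM at 3 weeks. The 1-week values were close together, and the 3-week values lay on both sides of them. The estimate for Rela, 0.21 on the log2 scale (standard error 0.13, adjusted p = 0.257, edgeR), did not pass the test, and over the alternatives it ran from 0.03 to 0.28 without a call.

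Nfkb2 (ENSMUSG00000025225, chromosome 19, 46304737 to 46312090) encodes p100, the precursor of p52 and itself an inhibitor of RelB dimers. It was measured at 19.7, 25.4, 24.3 and 20.1 RPKM at 1 week and at 19.97, 19.4, 12.6 and 14.1 RPKM at 3 weeks. Only 3 weeks replicate 1 reached into the 1-week range. The estimated difference, -0.28 on the log2 scale (standard error 0.16, adjusted p = 0.211, edgeR), did not pass the test. Nfkb2 overlaps Psd on the opposite strand, and the strand use of the counting is not given in the sources used here.

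Relb (ENSMUSG00000002983, chromosome 7, 19606217 to 19629438), whose protein pairs mainly with p52 and p100 in the alternative pathway, was at 9.17, 10.1, 6.87 and 6.42 RPKM at 1 week. At 3 weeks it was at 5.97, 6.78, 5.00 and 4.42 RPKM. Of the 4 late samples, 1 lay within the range of the early ones. At -0.39 (log2, standard error 0.20, adjusted p = 0.156, edgeR) the difference was not called.

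Nfkb1 (ENSMUSG00000028163, chromosome 3, 135584655 to 135691547) encodes p105, the precursor of p50. Its level was 5.24, 6.48, 6.78 and 6.69 RPKM at 1 week and 3.76, 3.46, 2.27 and 6.38 RPKM at 3 weeks. Replicates 1 to 3 at 3 weeks were below every 1-week sample, and replicate 4 was among them. With all samples the log2 difference was -0.52 (standard error 0.25, adjusted p = 0.136, edgeR). Without 3 weeks replicate 4 it was -0.82 (adjusted p = 0.00500, edgeR) and passed the threshold. Nfkb1 shares its strand and part of its span with the predicted gene Gm43430, although 100% of its exon reads were unique.

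Rel (ENSMUSG00000020275, chromosome 11, 23736847 to 23770970), the gene of c-Rel, a subunit best known from lymphocytes, was the lowest of the subunit transcripts. It was at 1.36, 1.55, 1.93 and 2.30 RPKM at 1 week and at 1.06, 1.26, 0.554 and 1.78 RPKM at 3 weeks, from 68 to 303 reads per sample. Only 3 weeks replicate 4 lay within the early range. On the log2 scale the difference was -0.48 (standard error 0.30, adjusted p = 0.250, edgeR), and it was -0.73 (adjusted p = 0.0680, edgeR) without that sample.

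Since RPKM is scaled to length, the share of each gene in the summed RPKM of the 5 subunits could be compared between samples. Rela made up 46.4% to 49.7% of the sum at 1 week and 57.1% to 59.2% at 3 weeks, with means of 48.5% ± 1.49 and 58.0% ± 0.964 (SD, n = 4 per group). All late samples exceeded all early samples, 3 weeks replicate 4 included. The share of Nfkb2 was 28.1% to 31.5% at 1 week and 22.7% to 26.5% at 3 weeks, also without overlap. The shares of Relb, Nfkb1 and Rel overlapped between the times. The summed level of the 5 genes was 70.1 to 81.3 RPKM at 1 week and 48.0 to 75.4 RPKM at 3 weeks. These shares are given without a test, since they are computed over genes that were chosen together and a larger share of 1 gene lowers those of the others. They also do not show which of the transcripts changed in amount, and the RPKM values of Rela and of Nfkb2 overlapped between the times. Of all tested genes, 26.2% were lower and 10.8% higher in RPKM without overlap. How often such shares separate in other sets of genes was not tested.

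**Figure D2:**
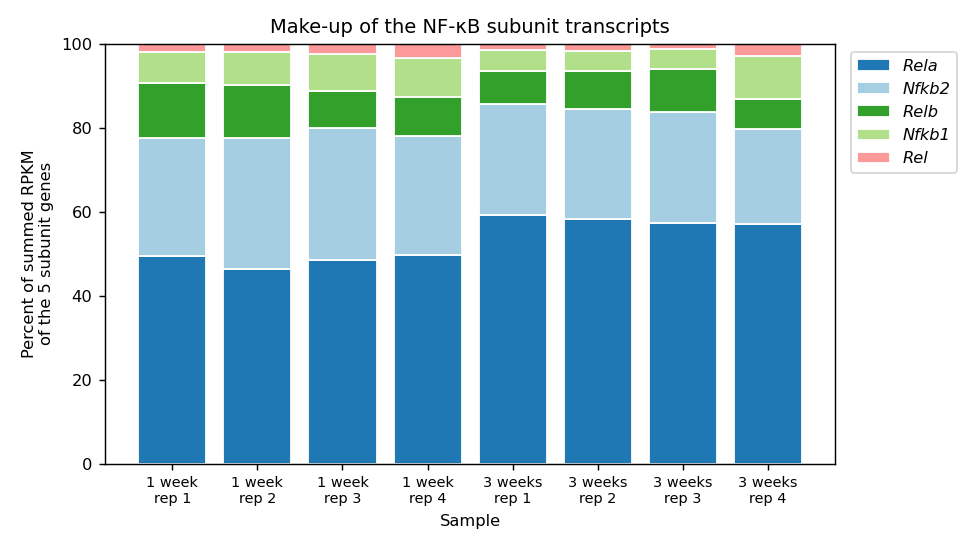
Share of each of the 5 subunit genes in their summed RPKM (vertical axis, percent) in each of the 8 samples (horizontal axis), stacked to 100%. The Rela share, at the bottom of each bar, was 46.4% to 49.7% in the 1-week samples and 57.1% to 59.2% in the 3-week samples.

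Nfkbia (ENSMUSG00000021025, chromosome 12, 55489410 to 55492647) encodes IκBα, the classical inhibitor that NF-κB itself induces. It had the highest level of the 10 genes in every sample, with 100.5, 105, 87.1 and 77.0 RPKM at 1 week and 64.1, 69.8, 93.8 and 118.5 RPKM at 3 weeks. The late samples lay both above and below the early ones. The estimate was 0.07 (log2, standard error 0.21, adjusted p = 0.827, edgeR), and its sign turned in 7 of 19 alternatives.

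Nfkbie (ENSMUSG00000023947, chromosome 17, 45555703 to 45563169), which encodes the related inhibitor IκBε, was covered by only 30 to 68 reads per sample. Its level was 0.914, 1.08, 1.42 and 0.633 RPKM at 1 week and 0.934, 0.959, 0.800 and 0.671 RPKM at 3 weeks, and the late values lay within the early range. At this depth no difference was detectable (-0.10 on the log2 scale, standard error 0.28, adjusted p = 0.824, edgeR).

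Nfkbiz (ENSMUSG00000035356, chromosome 16, 55811375 to 55838899) encodes IκBζ, an atypical IκB protein that resides in the nucleus and takes part in the induction of secondary NF-κB targets. At 1 week it was measured at 15.2, 16.1, 17.9 and 19.7 RPKM (1454, 1660, 1292 and 1740 reads). At 3 weeks it was measured at 4.06, 2.70, 2.56 and 16.1 RPKM (380, 223, 211 and 1188 reads). Replicates 1 to 3 of the late group were far below all early samples, while replicate 4 was within their range. The log2 fold change with all samples was -1.31 (standard error 0.54, unadjusted p = 0.0376, adjusted p = 0.0927, edgeR) and did not pass the threshold, but in DESeq2 the adjusted p was 0.0390. Leaving out 3 weeks replicate 4 gave -2.29 (standard error 0.18, adjusted p = 0.000230, edgeR). That omission was the only one of the 8 that gave a call.

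Bcl3 (ENSMUSG00000053175, chromosome 7, 19808462 to 19822770) encodes another nuclear IκB protein, which binds p50 and p52 dimers on DNA. Its level was 3.86, 3.81, 3.55 and 4.28 RPKM at 1 week and 1.67, 1.94, 1.30 and 5.06 RPKM at 3 weeks. As for Nfkbiz, replicates 1 to 3 of the late group were below all early samples, and replicate 4 was the highest of all 8. In edgeR the log2 difference was -0.50 (standard error 0.37, adjusted p = 0.331) with all samples and -1.06 (adjusted p = 0.00232, edgeR) without 3 weeks replicate 4. Of the Bcl3 reads 90.6% were unique, and the gene overlaps the predicted genes Gm16175 and Gm16174 on the opposite strand.

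Tnfaip3 (ENSMUSG00000019850, chromosome 10, 19000910 to 19015657) encodes A20, a ubiquitin-editing enzyme that NF-κB induces and that shuts off the signals leading to it. Its level was 4.32, 5.35, 9.27 and 5.36 RPKM at 1 week and 11.5, 9.69, 5.99 and 11.1 RPKM at 3 weeks. In 3 of the 4 late samples it was above every early sample, while 3 weeks replicate 3 lay below 1 week replicate 3. Tnfaip3 was called higher after 3 weeks, by 0.81 on the log2 scale (standard error 0.25, adjusted p = 0.0372, edgeR). The call was lost in 12 of 19 alternatives, in which the log2 fold change stayed positive. Among the omissions it remained without 1 week replicate 3 (adjusted p = 0.00807) and without 3 weeks replicate 3 (0.0209), and it was lost without 1 week replicates 1, 2 or 4 (0.120, 0.0952 and 0.0966) and without 3 weeks replicates 1, 2 or 4 (0.0937, 0.0733 and 0.0620, edgeR).

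**Figure D3:**
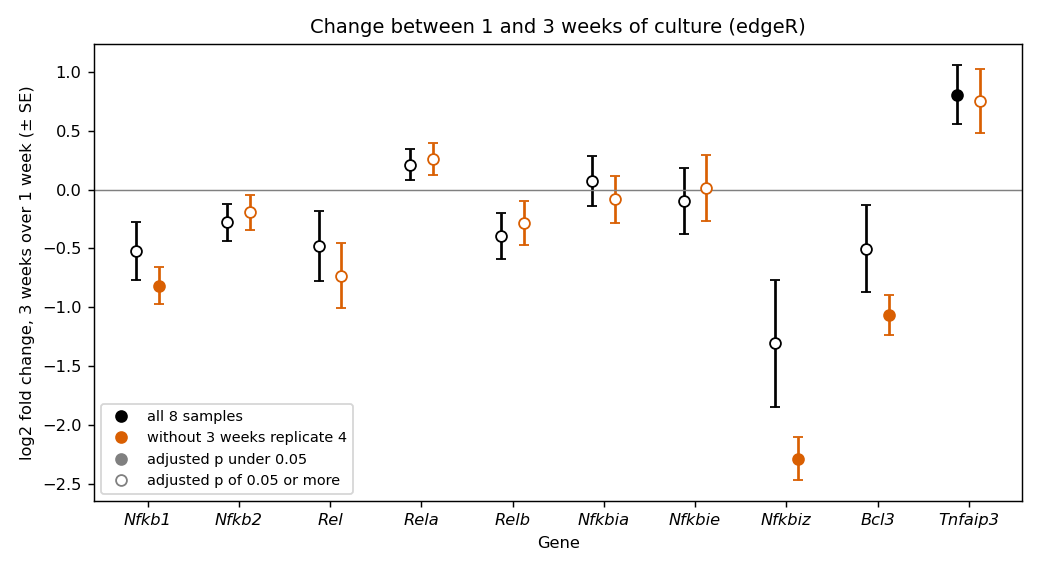
Log2 fold change (3 weeks over 1 week, vertical axis) of each of the 10 genes with its standard error, in edgeR, from all 8 samples (black) and without 3 weeks replicate 4 (orange). Filled points have an adjusted p under 0.05: Tnfaip3 at 0.81 with all samples, and Nfkb1 at -0.82, Nfkbiz at -2.29 and Bcl3 at -1.06 without that sample.

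The names of the deposited files carry numbers that the labels do not explain and that are read here as preparation numbers. Of these, 47 occurs only at 1 week, 57 only at 3 weeks, and 46, 49 and 90 at both times. Within these preparations the RPKM ratio of 3 weeks to 1 week was 0.267, 0.151 and 0.820 for Nfkbiz, and was thus lower in each but by little in preparation 90, which holds replicate 4 of both times. For Bcl3 the ratio was 0.432, 0.548 and 1.18, and for Nfkb1 it was 0.718, 0.510 and 0.954. In reads scaled to library size, the log2 difference of Nfkb1 in preparation 90 was 0.025, of the opposite sign to that in RPKM. For Tnfaip3 it was 2.67, 1.05 and 2.07, so that it was higher in each but by little in preparation 49. Nfkbia went in different directions, with 0.638, 0.801 and 1.54, and for Rela the ratio was 1.29, 1.15 and 1.012. Rel was lower at 3 weeks in each preparation, with 0.778, 0.654 and 0.773. In a fit of these 3 preparations with the preparation number as a block, the log2 fold change of Tnfaip3 was 0.92 (adjusted p = 0.0552, edgeR) and that of Nfkbiz was -1.56 (adjusted p = 0.0507, edgeR), and 0 of the 10 genes were called in either direction. In that fit 10.4% of all genes were called higher and 14.2% lower, 1316 and 1793 genes against 1981 and 2146 without the block. Without both samples of preparation 90, a fit added after the data had been seen, 0 genes were called higher and 3 lower (13.4% and 16.9% of all genes), with log2 fold changes of -0.82 for Nfkb1 (adjusted p = 0.0168), -2.26 for Nfkbiz (adjusted p = 0.000907) and -1.05 for Bcl3 (adjusted p = 0.00666, edgeR).

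Replicate 4 of the 3-week group differed from the other 3 late samples in some of the 10 genes and not in others. Its RPKM value was 5.18 times the mean of the other 3 for Nfkbiz, 3.09 times for Bcl3, 2.02 times for Nfkb1, 1.86 times for Rel and 1.56 times for Nfkbia. The corresponding differences in log2 CPM (reads scaled to library size, with TMM factors) were 2.31, 1.54, 0.96, 0.88 and 0.58. Of all tested genes, 1.49% had a larger difference than Nfkbiz, 4.85% than Bcl3, 11.5% than Nfkb1, 12.99% than Rel and 20.5% than Nfkbia. For Rela, Nfkb2, Nfkbie and Relb the sample was below the mean of the other late samples, by 0.17 to 0.49 in log2 CPM. The summed level of the 5 suprabasal KC markers was 13.6 RPKM in 3 weeks replicate 4 and 3.86, 3.96 and 3.93 RPKM in replicates 1 to 3, of which Ivl alone made 10.3 RPKM in replicate 4 (2.04, 1.11 and 0.507 RPKM in the others). Lor and Flg were also highest of the late samples there, at 2.68 and 0.0235 RPKM, the latter from 5 reads. Krt1 lay within the range of the other late samples, and Krt10 was lowest in that sample, at 0.354 RPKM. At 1 week the suprabasal sum was 5.56, 3.96, 20.6 and 26.7 RPKM in replicates 1 to 4, and Nfkbiz was at 15.2, 16.1, 17.9 and 19.7 RPKM. A relation between this sum and Nfkbiz was not tested. The 8 fibroblast markers summed to 5.24 RPKM in 3 weeks replicate 4 and to 2.82 to 3.76 RPKM in the other late samples, of which Col1a1 made 3.34 RPKM in replicate 4. Col1a2 and Pdgfrb were also highest there, at 0.367 and 0.186 RPKM. Dcn and Col3a1 were lowest there, at 0.257 and 0.312 RPKM, and the other fibroblast markers lay between. The sum of the 11 leukocyte markers was lowest in replicate 4 of the late group, at 1.78 RPKM, but Cd74 and Csf1r were not lowest there. The part of these marker genes in the values of replicate 4 was not tested. In bulk RNA, a change in the share of cells and a change in the RNA of each cell cannot be told apart.

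**Figure D4:**
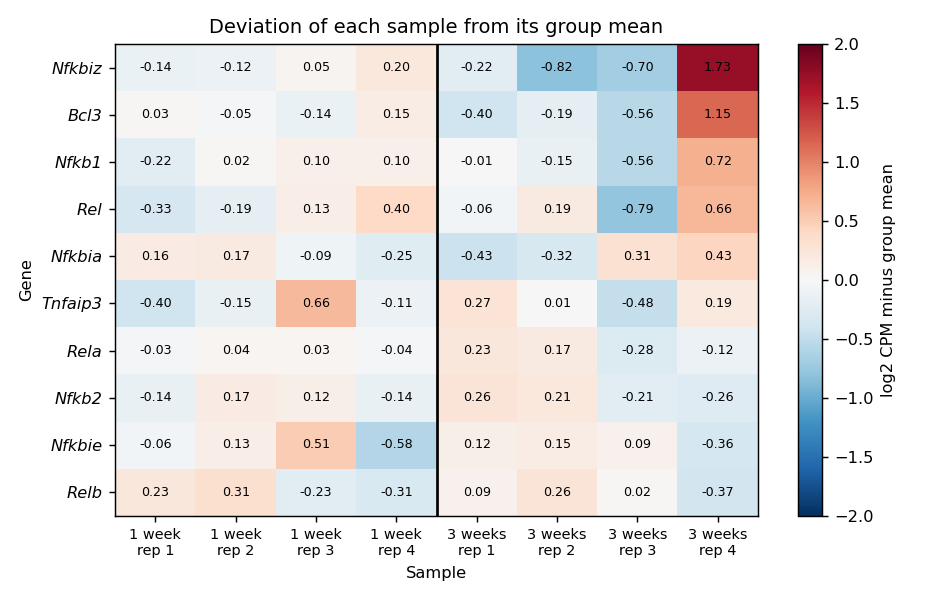
Deviation of each sample (columns) from the mean of its group for the 10 genes (rows), in log2 CPM after TMM scaling, with red above and blue below the group mean and the value printed in each cell. In 3 weeks replicate 4, Nfkbiz was 1.73, Bcl3 1.15, Nfkb1 0.72 and Rel 0.66 above the group mean, while Relb was at -0.37.

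How the genes varied together within the groups was described by Pearson's r of log2 CPM after subtraction of the group means, over 8 samples that share their library depth between genes. The highest value was that of Nfkbiz and Bcl3 (r = 0.94), but over the 7 samples without 3 weeks replicate 4 it was -0.01. For Nfkb1 and Nfkbiz r was 0.91 with and 0.60 without that sample. The values for Nfkb1 and Rel (0.88 and 0.86) and for Nfkb2 and Rela (0.88 and 0.88) moved little with its removal. Rela and Nfkbia ran in opposite directions, with r of -0.80 in either case. For Tnfaip3, the gene of the 10 with the smallest edgeR p, the most similar of 8742 genes in this measure were Sorcs2 (r = 0.98), Cyb5r3 (0.96) and Eps8 (0.96).

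By mean RPKM at 1 week the order was Nfkbia (92.5), Rela (36.2), Nfkb2 (22.4), Nfkbiz (17.2), Relb (8.14), Nfkb1 (6.30), Tnfaip3 (6.07), Bcl3 (3.87), Rel (1.79) and Nfkbie (1.012). The ranges over samples of Relb and Nfkb1, of Nfkb1 and Tnfaip3, and of Rel and Nfkbie overlapped, and those of the other neighbours did not. At 3 weeks Nfkbia (86.5), Rela (37.7) and Nfkb2 (16.5) again came first, and Rela was above Nfkb2 in every sample. The Nfkb2 range (12.6 to 19.97 RPKM) held the 16.1 RPKM of Nfkbiz in 3 weeks replicate 4. The next places were held by Tnfaip3 (9.57), Nfkbiz (6.36), Relb (5.54), Nfkb1 (3.97), Bcl3 (2.49), Rel (1.16) and Nfkbie (0.841), of which every neighbouring pair overlapped.

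The reads on introns gave a further measure for Nfkbiz. Intron reads made up 5.22%, 2.70%, 2.86% and 1.53% of its reads at 1 week and 10.4%, 12.5%, 21.0% and 6.53% at 3 weeks, with every late sample above every early one, including 3 weeks replicate 4. The number of intron reads was 27 to 80 per sample at 1 week and 32 to 83 at 3 weeks, and thus overlapped, while the exon reads differed as given above. Among the 764 tested genes with at least 20 intron reads in every sample, 14.9% had a higher intron share at 3 weeks without overlap and 3.80% a lower one. Nfkbiz was the only one of the 10 genes among these 764. For Bcl3 the intron share was 1.52% to 4.10% at 1 week and 8.33% to 11.2% at 3 weeks. It came from 3 to 8 and 6 to 19 reads per sample, too few for the 764 genes. Other genes lie on its opposite strand, as given above. In the remaining members the ranges overlapped, and the mean share was higher at 3 weeks in all of them except Rel (for Nfkb1 2.11% and 5.19%, for Relb 1.89% and 3.43%).

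Further genes of the pathway were read from lists of pathway components, of receptors and ligands, and of known target genes. Of 47 components (kinases, adaptors, ubiquitin enzymes and further regulators), 45 were tested. Of these, 6 were called higher and 3 lower after 3 weeks in edgeR, beside 15.7% and 17.0% of all tested genes, with a median log2 fold change of 0.11 against 0.03 for all genes. Irak2, a kinase-like adaptor of interleukin-1 and Toll-like receptors, rose from 3.82, 3.91, 3.11 and 3.06 RPKM to 6.00, 6.21, 5.42 and 5.45 RPKM (log2 fold change 0.89, adjusted p = 0.00175, edgeR). Its relative Irak1 fell from 17.4, 18.5, 19.4 and 18.8 RPKM to 11.1, 11.2, 8.20 and 10.9 RPKM (log2 fold change -0.68, adjusted p = 0.00177, edgeR). Both calls remained in all 19 alternatives, and in both genes the groups did not overlap. Irak2 overlaps predicted genes on either strand.

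Ikbkg, which encodes the regulatory subunit NEMO of the IκB kinase, rose from 8.63 ± 0.383 to 12.3 ± 0.763 RPKM (SD, n = 4 per group) with an adjusted p of 0.00342 in edgeR, and of 0.0519 with the preparation block. Ikbkg overlaps G6pdx on the opposite strand. Cyld, a deubiquitinase that restrains the pathway, rose by 0.45 on the log2 scale (adjusted p = 0.0164, edgeR), a call that was lost in 7 of 19 alternatives, among them those without 1 week replicates 3 or 4 (adjusted p = 0.0517 and 0.0564) and with the preparation block (0.0759), with adjusted p up to 0.103. Rbck1, which encodes the HOIL-1 subunit of the linear ubiquitin ligase, fell from 20.8 ± 1.60 to 12.8 ± 1.70 RPKM (SD, n = 4 per group; adjusted p = 0.0188, edgeR). It lost the call without 3 weeks replicates 1 or 2 (0.0529 and 0.0634) and with the replicate number as a block (0.0707, edgeR). Nkrf, a repressor named for its action on NF-κB promoters, fell from 3.57 ± 0.736 to 1.84 ± 0.496 RPKM (SD, n = 4 per group; adjusted p = 0.0231, edgeR). Its call was lost without 1 week replicates 3 or 4 (0.0622 and 0.0646) and without 3 weeks replicate 2 (0.0531). The same held with the preparation block (0.0839) and with the replicate number as a block (0.0665, edgeR).

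The count of components called higher depended on single samples. It was 3, 4, 4 and 2 without 1 week replicates 1 to 4 and 3, 5, 8 and 9 without 3 weeks replicates 1 to 4, and it was 2 with the preparation block. The count called lower was 1 without 3 weeks replicate 2 and 7 without 3 weeks replicate 4.

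Of 42 receptors and ligands, 39 were found by name and 25 were tested, with 2 called higher and 5 lower (15.7% and 17.0% over all genes) and a median log2 fold change of 0.05. Tlr2, the receptor for bacterial lipopeptides, rose from 6.31, 7.18, 4.65 and 4.23 RPKM to 12.7, 13.5, 11.9 and 13.3 RPKM (log2 fold change 1.36, adjusted p = 0.000839, edgeR). Il1a, which encodes the cytokine interleukin-1α, fell from 158, 205, 139 and 136 RPKM to 32.5, 41.2, 41.6 and 40.8 RPKM (log2 fold change -1.86, adjusted p = 0.000293, edgeR). The groups did not overlap in either gene, and both calls remained in all 19 alternatives. Only 18.4% of the Il1a reads were unique, and Il1a overlaps Gm14023 on the opposite strand.

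Il1rl2, the receptor of the interleukin-36 cytokines, fell from 3.35 ± 1.15 to 1.09 ± 0.296 RPKM (SD, n = 4 per group; adjusted p = 0.00387, edgeR). Edaradd, an adaptor of the ectodysplasin receptor, fell from 0.473 ± 0.124 to 0.112 ± 0.0380 RPKM (SD, n = 4 per group; adjusted p = 0.00249, edgeR), from 7 to 68 reads per sample. Tnfrsf11a, which encodes RANK, was called higher from 12 to 61 reads per sample (adjusted p = 0.0484, edgeR). That call was lost in 13 of 19 alternatives, among them every omission except that of 3 weeks replicate 3 (adjusted p = 0.118, 0.0989, 0.115 and 0.0607 without 1 week replicates 1 to 4 and 0.0761, 0.0937 and 0.0963 without 3 weeks replicates 1, 2 and 4). Without 3 weeks replicate 4, 9 genes of this list were called lower in place of 5, and the median was -0.06.

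Of 48 target genes of NF-κB, 36 were tested, with 7 called higher and 3 lower (15.7% and 17.0% over all genes) and a median log2 fold change of 0.13. With log2(RPKM + 0.1) it was -0.12, against -0.16 for all genes. Plau, which encodes the protease urokinase, rose from 241, 302, 375 and 237 RPKM to 764, 680, 426 and 500.1 RPKM, without overlap (log2 fold change 1.19, adjusted p = 0.00364, edgeR). Tapbp, a protein of antigen loading, rose from 37.1 ± 6.81 to 69.8 ± 25.1 RPKM (SD, n = 4 per group; adjusted p = 0.00994, edgeR), with an overlap of the groups through 3 weeks replicate 3. The call was lost without preparation 90 (0.0567, edgeR) and with limma on log2(RPKM + 0.1) (0.0526). Of the Tapbp reads 83.8% were unique, and the gene overlaps Zbtb22 and, on the opposite strand, Gm19412. Csf1, which encodes a growth factor of macrophages, rose from 23.0 ± 8.46 to 58.8 ± 32.3 RPKM (SD, n = 4 per group; adjusted p = 0.0151, edgeR), with overlapping groups. Its call was lost without 1 week replicate 1 (0.0550), without preparation 90 (0.0547) and with the replicate number as a block (0.0601, edgeR).

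The 3 target genes called lower encode a protease and 2 neutrophil chemokines. Mmp3, a matrix metallopeptidase, fell from 17.1, 54.5, 22.9 and 28.4 RPKM to 8.64, 9.36, 3.92 and 3.33 RPKM (log2 fold change -2.12, adjusted p = 0.00621, edgeR). Cxcl5 fell from 28.1, 51.9, 31.6 and 61.7 RPKM to 8.64, 12.2, 17.7 and 13.6 RPKM (log2 fold change -1.55, adjusted p = 0.00646, edgeR). Cxcl1 fell from 167, 228, 182 and 198 RPKM to 41.2, 48.8, 68.0 and 132 RPKM (log2 fold change -1.26, adjusted p = 0.0193, edgeR), and its call was lost without 3 weeks replicate 2 (0.0519). In these 3 genes no late sample reached an early one, and in Cxcl1 3 weeks replicate 4 was the highest of the late samples. The count of target genes called higher was 2 without 1 week replicate 1 and 3 without 1 week replicate 4, and the count called lower was 6 without 3 weeks replicate 4.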

How the data were processed

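Poly(A) RNA of 8 samples was analysed, 4 for each time of culture, grouped by the labels. The authors used the CLC Genomics Workbench to map the reads to GRCm38, and deposited whole read counts per gene (total and unique exon reads, intron reads and gene reads, without normalization) and RPKM values scaled to exon length and mapped reads. The annotation release and the use of strand are not given in the sources used here.

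The test on exon reads used edgeR 4.0.16 under R 4.3.3 (filterByExpr, TMM, glmQLFit and glmQLFTest, Benjamini-Hochberg, threshold 0.05) without pairing, and standard errors were derived from the F statistics. The procedure was tested on simulated data. Alternatives were DESeq2 1.42.0, limma 3.58.1 on log2(RPKM + 0.1) and log2(RPKM + 1), upper-quartile scaling, no filter, at least 10 reads in every sample, unique exon reads, gene reads, blocks by replicate or preparation number, and omission of each sample. Replicates of a group differed by more than sampling noise (chi-square per degree of freedom at least 15.6).

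The 10 genes and the lists were chosen with earlier results of these data known. All 10 are named. From each list the 3 genes with the smallest edgeR p among those called higher, and the 3 among those called lower, are named if their mean was at least 1 CPM, as are the 3 genes most like the member with the smallest p (mean of at least 10 CPM). Promoters came from RefSeq and untranslated regions from a GENCODE annotation of GRCm38. The p-values measure the spread between cultures.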

Additional observations from a re-analysis of the deposited data

Results flagged for a closer look

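In 2 of the 20 groups tested (10 genes at 2 times), a sample lay apart from the other 3 by Dixon's test, in which the gap to the nearest sample is divided by the range of the group and compared with the critical value for 4 samples. Chance gives such a result in about 1 of 20 groups. In both cases it was replicate 4 of the 3-week group. Nfkbiz was at 16.1 RPKM in that sample, with a gap of 0.889 of the range, and Bcl3 was at 5.06 RPKM, with a gap of 0.830, just above the critical value.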

How the results depend on the processing

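For Nfkb2, Rel, Rela and Relb, all 19 alternatives kept the sign and none passed the threshold. Nfkb1 and Bcl3 also kept the sign and were called in 2 alternatives, without 3 weeks replicate 4 and without preparation 90. Nfkbiz was called lower in 6 and Tnfaip3 higher in 7 of 19. The log2 fold change of Nfkbia turned to -0.13 with limma on log2(RPKM + 0.1) and on log2(RPKM + 1), -0.041 with the preparation block, -0.010 without 1 week replicate 4, -0.042 without 3 weeks replicate 3, -0.083 without 3 weeks replicate 4 and -0.21 without preparation 90, and over the omissions it was at most 0.20. That of Nfkbie turned to 0.10 without 1 week replicate 3 and 0.016 without 3 weeks replicate 4, and over the omissions it was at least -0.27. The causes were not tested.

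Of the 10 genes, 0 were called higher with no filter, either limma scale, the preparation block or without preparation 90, and 1 lower with DESeq2 and either limma scale, 3 without preparation 90. Over the omissions of single samples the counts were 0 to 1 higher and 0 to 3 lower. Of all genes, 1292 and 1252 were called higher on the limma scales (the smaller pseudocount first) and 1316 with the preparation block, and 1371 to 2284 over the omissions. On these RPKM scales 3025 and 3103 genes were called lower. Components called higher numbered 10 with DESeq2, 3 with no filter, 2 on either limma scale, 2 with the preparation block, 3 without preparation 90 and 2 to 9 over the omissions, and those called lower 6 and 7 on the limma scales, 7 without preparation 90 and 1 to 7 over the omissions. Receptors and ligands called higher numbered 1 with no filter, unique reads, gene reads and either limma scale, and 1 to 2 over the omissions, and those called lower 8 without preparation 90 and 4 to 9 over the omissions. Target genes called higher numbered 3 and 4 on the limma scales, 1 without preparation 90 and 2 to 7 over the omissions, and those called lower 5 with DESeq2, 5 on log2(RPKM + 1), 6 without preparation 90 and 2 to 6 over the omissions.

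With the replicate number as a block, 0 of the 10 genes were called higher and 1 lower (Nfkbiz), as were 1309 of all genes higher, 2 components higher, and 4 target genes higher and 5 lower. Within the groups, the deviations of samples sharing a number had r of -0.23, -0.15, -0.15 and 0.25 over the tested genes. Replicate numbers 1 and 4 carry the same preparation number at both times (46 and 90), and replicate numbers 2 and 3 do not. For the samples with preparation number 49 r was 0.20. The highest r of an early and a late sample, 0.42, was that of 1 week replicate 1 and 3 weeks replicate 3, whose preparation numbers differ. With 4 samples per group and 30 to 68 reads for Nfkbie, small differences could be missed.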
